A study of Mus musculus with 60 samples.

Results

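Genes for the storage, hydrolysis and carriage of lipid were measured in undifferentiated mouse embryonal carcinoma cells, the pluripotent stem cells of teratocarcinomas. The set held 7 genes, Plin2, Lpl, Pltp, Apoe, Abca1, Fabp3 and Fabp5, out of 18193 genes with a probe set of a single gene symbol. They were chosen by symbol, and the choice was made with results of these arrays known. The earlier results included the lower signal of Plin2 and Lpl in CL6G26 than in P19CL6 and of Pltp in P19 than in P19CL6. These 3 differences are described below without a test. The other differences of these genes were also in view when the genes were chosen. Their adjusted p-values are given as a description and are not independent tests. All 7 genes had at least 1 probe set bright enough to test, which left 12 of their 13 probe sets among 13181 genes tested.

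The cells were of 6 strains: P19, a line of C3H male embryo origin that forms neural or mesodermal derivatives, P19CL6, a substrain of P19, and the sublines CL6G26, CL6G36, CL6G45 and CL6G52 of P19CL6. All were kept undifferentiated in the same serum-containing medium, and the labels name no treatment and no engineered allele. Each strain had 5 biological replicates on each of 2 oligonucleotide array types, MOE430A and MOE430B, or 60 arrays. Each strain is a single line, the sources used here do not give how the sublines were obtained, and nothing says whether replicates were separate cultures. The p-values therefore cover only the spread among these samples, which may be technical.

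A lipid droplet is a core of triglyceride and sterol ester under a phospholipid layer, and perilipins coat it and limit the access of lipases. Lipoprotein lipase, made by Lpl, works outside the cell, where it releases fatty acids from circulating lipoproteins. Pltp moves phospholipid between lipoproteins, Apoe is the apolipoprotein that ligates receptors of the LDL family, and Abca1 passes cholesterol and phospholipid out of the cell to lipid-poor apolipoproteins. Inside the cell, fatty acids are carried by small binding proteins of the Fabp family. Several of these genes are textbook targets of the nuclear receptors PPAR and LXR.

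Levels are given as log2 of the quantile-normalised signal, and differences as the first strain minus the second on that scale. The floor, below which a signal was taken as not reliably measured, lay at 4.61 on MOE430A and 4.15 on MOE430B. Signals under it still entered the main fit, the means and the correlations unchanged, unless stated as raised to the floor. The median deposited signal of an array was 30.2 to 53.4 for MOE430A and 10.6 to 16.5 for MOE430B. With 5 arrays per strain, the number of arrays limits how precisely a difference can be measured. Of 9 markers of embryonal carcinoma cells, 8 were above the floor on all 30 MOE430A arrays, Pou5f1 with strain means of 11.24 to 11.59, and Dppa5a was above it on 11. Of 6 measured adipocyte markers, Adipoq, Lep, Pparg and Cidec were above the floor on none of the arrays, Fabp4 on 1 and Retn on 28, with Retn strain means of 5.10 to 5.71. Of 8 macrophage markers, Ptprc and Tyrobp were above it on none and Csf1r on all. Fcer1g was above it on 1 array, Cd68 on 5, Adgre1 on 11, Lyz2 on 18 and Cd14 on 19. Of 10 markers of extraembryonic endoderm, Ttr, Apoa1 and Cubn were above it on none, and Afp and Apob on 1 array each. Sox17 was above it on 4, Hnf4a on 12, Amn on 26, Foxa2 on 29 and Dab2 on all. Foxa2 had strain means of 4.91 to 7.02, the highest in CL6G26. Of 8 fibroblast markers 4 were above it on none, Col1a1 on 1, Dcn on 4, and Col1a2 and Thy1 on all. P19 replicates 4 and 5 correlated best with the mean profile of P19CL6, and CL6G52 replicate 1 with that of CL6G45, on both array types. For the 7 genes, most differences that rest on these 3 samples are given with and without them. Fabp3 in P19 and in CL6G52, Abca1, and the dimmer Pltp probe set in P19 are given only with all arrays. For other genes of lipid storage and transport, only counts are given without these samples.

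The RefSeq promoter table for GRCm38.p6 held entries for 5 of the 7 genes. The 250 bases upstream of the start are shown for Plin2 and Pltp, the listed genes with the widest differences between strains. Capitals mark the nuclear receptor core motif AGGTCA, here on the other strand as TGACCT. The Plin2 stretch is chr4:86670060-86670309 and the Pltp stretch is chr2:164857709-164857958, both on the minus strand, and both are written 5′ to 3′ along the gene.
Plin2: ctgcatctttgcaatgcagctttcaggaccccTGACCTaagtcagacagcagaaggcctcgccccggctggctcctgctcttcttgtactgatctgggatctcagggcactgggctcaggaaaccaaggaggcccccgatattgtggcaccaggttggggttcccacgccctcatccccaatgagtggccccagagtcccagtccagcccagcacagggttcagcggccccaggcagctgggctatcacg
Pltp: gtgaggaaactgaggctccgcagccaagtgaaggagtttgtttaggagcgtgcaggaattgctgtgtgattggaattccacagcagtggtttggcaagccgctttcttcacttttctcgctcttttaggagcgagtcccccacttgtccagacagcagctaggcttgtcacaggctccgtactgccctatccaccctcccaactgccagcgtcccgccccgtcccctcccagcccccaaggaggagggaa
The core motif in Plin2 began 218 bases upstream of the start, and 14% of 32851 promoter windows of the same length held these letters on either strand. The listed Plin2 start was at 86670059, while the annotated gene reaches 86670217 at its 5′ end. Part of the printed Plin2 stretch therefore lies inside the annotated gene. The listed starts of Abca1 and Apoe also lay inside their annotated genes. The Pltp window held none of the 3 motifs searched on both strands, which were this core motif, the E-box CACGTG and the TATA box TATAAA. The Abca1 window held the E-box 147 bases and the TATA box 29 bases upstream of the start. Of all windows, 6.02% held the E-box and 12.4% the TATA box. The 3 Apoe starts included 1 with TATA box letters, on both strands in overlapping matches, and the Fabp3 window held none of the motifs.

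Plin2, the perilipin that coats droplets in most cell types, was above the floor in 5 strains and under it in CL6G26. Its log2 signals in CL6G26 replicates 1 to 5 were 3.30, 3.86, 2.07, 4.14 and 2.35, all under the floor. In P19CL6 they were 6.28, 6.25, 6.62, 6.43 and 6.36. The CL6G26 values did not reach those of any other strain, since the lowest array elsewhere was CL6G52 replicate 3 at 5.62. As deposited, before any scaling here, the CL6G26 signals were 12.2, 12, 4.0, 22.7 and 5.0 against 80.1, 92.6, 98.8, 73.5 and 58.1 in P19CL6. The mean was 3.14 ± 0.91 (SD, n = 5) in CL6G26 and 6.39 ± 0.15 in P19CL6, a difference of -3.24 ± 0.27 (SE of the fit). Since every CL6G26 array was under the floor, the size is a bound: at least 3.42-fold lower, the P19CL6 mean against the floor. In these bulk samples, fewer cells of a kind and less RNA per cell cannot be told apart.

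The 3 other sublines had Plin2 signal above the floor on every array. CL6G36 had 6.01, 5.90, 5.79, 5.94 and 6.14, CL6G45 had 6.73, 6.01, 6.19, 6.34 and 6.39, and CL6G52 had 6.58, 5.92, 5.62, 6.02 and 5.95. All 5 CL6G36 arrays lay below all 5 P19CL6 arrays, but the difference of -0.43 (95% interval -0.99 to 0.13) did not pass the limma test (adjusted p = 0.305). It passed under 1 of 20 alternatives, the fit of only these strains (limma adjusted p = 0.0114). The fit over 30 arrays uses a spread shared by 6 strains. The Plin2 SD was 0.91 in CL6G26 and 0.50 in P19, against 0.13 in CL6G36 and 0.15 in P19CL6. The interval therefore does not measure the spread of CL6G36 and P19CL6 alone. The order from low to high was CL6G26, CL6G36, CL6G52, CL6G45, P19CL6 and P19, and the ranges of all neighbours above CL6G26 overlapped. In P19, Plin2 was 6.97, 6.94 and 7.16 in replicates 1, 2 and 3, and 5.96 and 6.34 in replicates 4 and 5. The first 3 lay above every P19CL6 array and the other 2 did not. P19CL6 minus P19 was -0.29 (95% interval -0.85 to 0.27) with all arrays and -0.64 without P19 replicates 4 and 5, and neither passed (limma adjusted p = 0.582 and 0.119).

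Lpl, the extracellular triglyceride lipase, had its lowest signal in CL6G26 on both of its probe sets. On the brighter one, from which the gene was read, CL6G26 replicates 1 to 5 had log2 signals of 6.21, 6.68, 6.34, 6.51 and 6.53, and P19CL6 had 8.10, 8.13, 7.72, 7.82 and 7.95. All CL6G26 arrays were above the floor, so the gene was still measured, and the 2 strains did not overlap. The difference was -1.49 ± 0.13, which is 2.81-fold lower. On the dimmer probe set the means were 4.55 ± 0.25 and 5.51 ± 0.19, with 2 of 5 CL6G26 arrays above the floor, and the difference with signals raised to the floor was -0.85.

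CL6G45 held the next level up in Lpl, with 7.46, 7.39, 7.38, 7.27 and 7.30. These arrays lay between those of CL6G26 and P19CL6 and overlapped neither. The difference from P19CL6 was -0.59 ± 0.13 (limma adjusted p = 0.00242), 1.5-fold lower. It passed under 19 of 20 alternatives and was -0.49 with adjusted p = 0.216 under the deposited scaling. On the dimmer probe set the CL6G45 and P19CL6 arrays did not overlap either, but the difference of -0.27 did not pass (limma adjusted p = 0.182).

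The other strains shared a higher Lpl level. CL6G36 had 7.78, 7.79, 7.82, 7.83 and 8.01, and P19 had 8.41, 7.97, 8.21, 7.82 and 8.18. CL6G52 had 7.32 in replicate 1 and 7.96, 8.24, 8.30 and 8.25 in the others, so that its replicate 1 alone lay at the level of CL6G45 on this probe set. On the dimmer one that replicate had 5.84, the highest of its strain and above every CL6G45 array. CL6G52 minus P19CL6 was 0.07 (95% interval -0.21 to 0.35) with that sample and 0.24 without it, and neither passed (limma adjusted p = 0.839 and 0.184). The paired probe sets had r = 0.856 over 30 arrays and 0.490 over the 25 arrays without CL6G26.

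**Figure D1:**
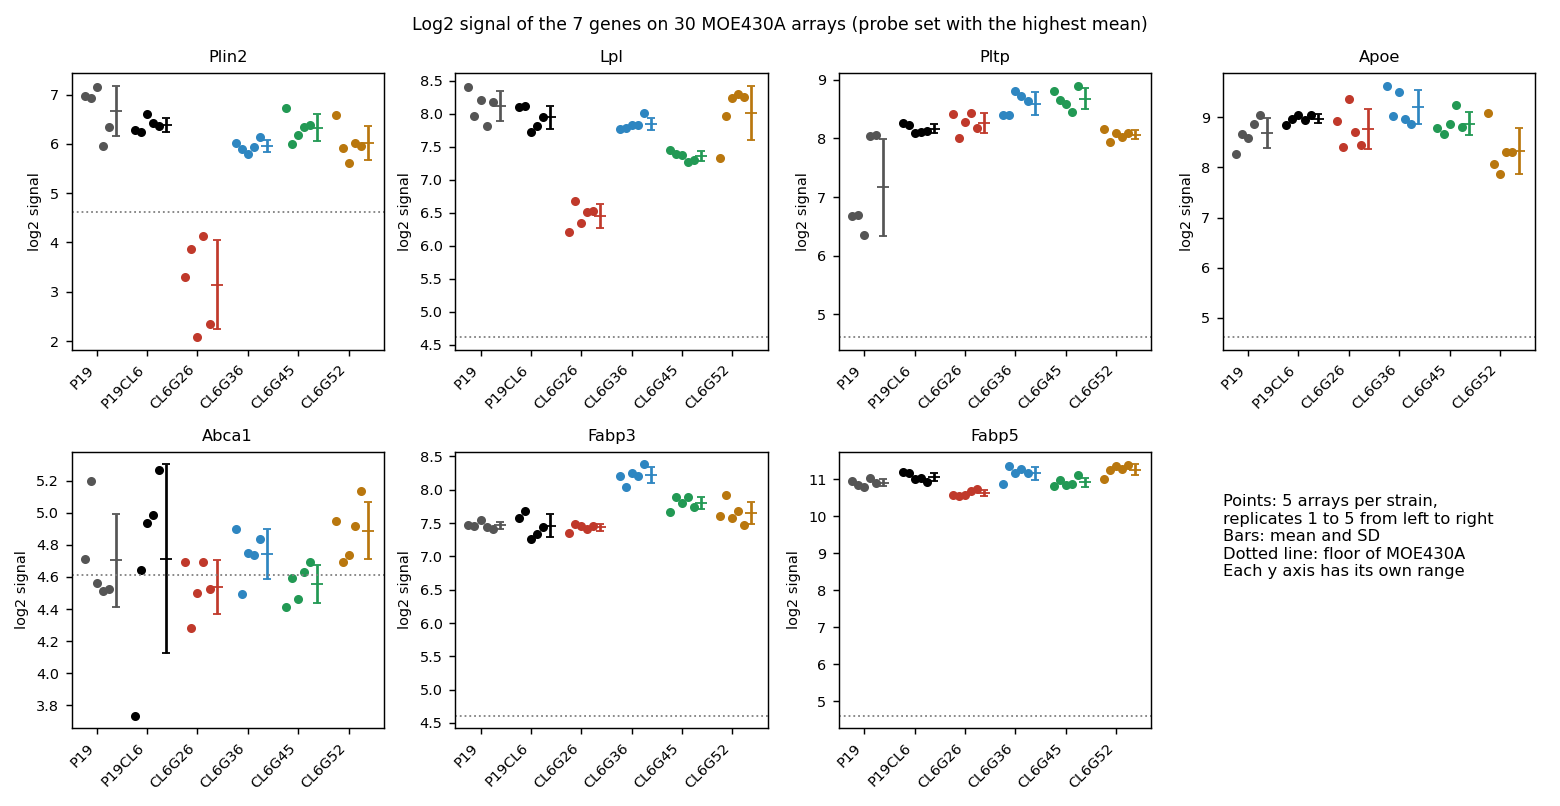
Each panel plots the log2 signal (y axis, own range per gene) of one gene on 30 MOE430A arrays in 6 strains (x axis), points being replicates 1 to 5 from left to right, bars the mean and SD, and the dotted line the floor of 4.61. Plin2 in CL6G26 lies under the floor on all 5 arrays, Lpl in CL6G26 lies between 6.21 and 6.68, and P19 replicates 4 and 5 lie apart from the other P19 arrays in Pltp.

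Pltp, the phospholipid transfer protein, divided the P19 arrays into low and high values. On the brighter of its probe sets, P19 replicates 1, 2 and 3 had log2 signals of 6.68, 6.70 and 6.35, while replicates 4 and 5 had 8.04 and 8.06. P19CL6 had 8.27, 8.24, 8.09, 8.12 and 8.13. Thus replicates 4 and 5 lay just under the lowest P19CL6 array, and the other P19 arrays lay far below. The means were 7.17 ± 0.82 and 8.17 ± 0.08 (SD, n = 5), a difference of 1.0 ± 0.21, and it was 1.59 without P19 replicates 4 and 5. On the dimmer probe set P19 had 4.98, 5.15, 3.57, 6.85 and 6.87 against 6.72, 6.88, 6.78, 7.0 and 6.90 in P19CL6, where replicates 4 and 5 fell inside the P19CL6 range. The difference there was 1.38 ± 0.34. The 3′ to 5′ signal ratio of the Gapdh control probe sets, a measure of RNA quality, was 0.908 to 0.954 on the P19 arrays of MOE430A and 0.835 to 0.887 on those of P19CL6, and its part in the difference was not tested.

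Pltp was also high in all 4 sublines. CL6G26 had 8.42, 8.02, 8.27, 8.43 and 8.19, and CL6G52 had 8.16, 7.95, 8.10, 8.02 and 8.10, both overlapping P19CL6. CL6G36 had 8.40, 8.40, 8.82, 8.73 and 8.63, and CL6G45 had 8.81, 8.65, 8.59, 8.46 and 8.90. Every array of these sublines lay above every P19CL6 array. Their differences from P19CL6 were 0.43 and 0.51, and neither passed the limma test over 30 arrays (adjusted p = 0.164 and 0.0889). That test uses a spread shared by 6 strains. The Pltp SD was 0.82 in P19, against 0.08 in P19CL6, 0.19 in CL6G36 and 0.17 in CL6G45. Both differences passed when P19 replicates 4 and 5 were left out of the fit (limma adjusted p = 0.00155 and 0.000253), with the differences themselves unchanged. They passed as well in fits of only the arrays compared, with limma adjusted p = 0.00393 for Pltp in CL6G36 against P19CL6 and 0.000486 for Pltp in CL6G45 against P19CL6. These were the only 2 of 20 alternatives under which either passed. Elsewhere the limma adjusted p reached 0.562 in CL6G36 and 0.408 in CL6G45. The second probe set did not show CL6G45 above P19CL6, with means of 7.03 ± 0.24 and 6.86 ± 0.11 and overlapping arrays, whereas all CL6G36 arrays, at 7.36 to 7.72, were above P19CL6 there too.

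**Figure D2:**
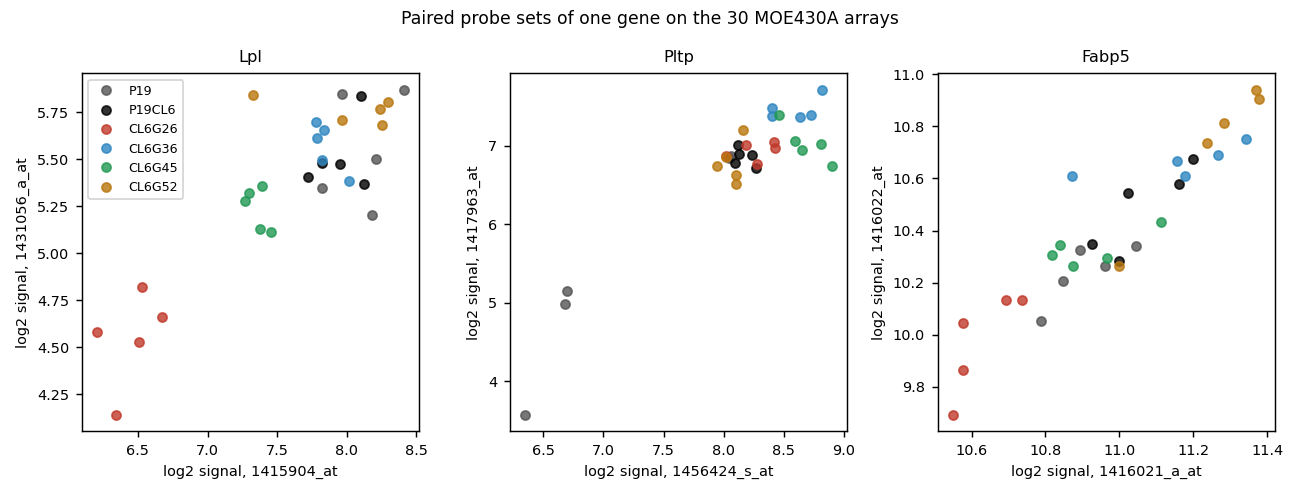
Each panel plots the log2 signal of 1 probe set (x axis) against that of another probe set of the same gene (y axis) for Lpl, Pltp and Fabp5, with 30 MOE430A arrays as points coloured by strain. The CL6G26 arrays lie at the low end of both Lpl axes, and P19 replicates 1, 2 and 3 lie apart at the low end of both Pltp axes.

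Apoe, the receptor-binding apolipoprotein, had strain means from 8.33 in CL6G52 to 9.20 in CL6G36, with an SD within strains of up to 0.46. P19CL6 had log2 signals of 8.84, 8.97, 9.05, 8.95 and 9.05. CL6G52 had 9.09 in replicate 1 and 8.07, 7.87, 8.31 and 8.30 in the others. Replicate 1 lay above all P19CL6 arrays and the other 4 lay below all of them. The difference was -0.65 ± 0.19 (limma adjusted p = 0.0403), 1.56-fold lower, and without CL6G52 replicate 1 it was -0.84 (limma adjusted p = 0.00257). It passed under 6 of 19 alternatives, with adjusted p from 0.00257 to 0.284. Leaving out any of CL6G52 replicates 2 to 5 or of the P19CL6 replicates brought the adjusted p above 0.05.

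Apoe in the remaining strains did not pass against P19CL6. CL6G26 had 8.93, 8.40, 9.36, 8.70 and 8.45, CL6G36 had 9.63, 9.03, 9.50, 8.97 and 8.87, and CL6G45 had 8.78, 8.66, 8.87, 9.25 and 8.81, each overlapping P19CL6. The SD was 0.39 in CL6G26, 0.34 in CL6G36 and 0.22 in CL6G45 against 0.09 in P19CL6. P19 had 8.26, 8.66, 8.59, 8.87 and 9.05, with replicates 4 and 5 the highest, and P19CL6 minus P19 was 0.29 (95% interval -0.10 to 0.67, limma adjusted p = 0.390) with all arrays and 0.47 without P19 replicates 4 and 5 (limma adjusted p = 0.107).

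Abca1, the cholesterol exporter, lay at the floor in every strain. On the brightest of its 3 probe sets 19 of 30 arrays were above the floor and strain means ran from 4.54 in CL6G26 to 4.89 in CL6G52. P19CL6 had the widest spread, with 3.74, 4.64, 4.93, 4.99 and 5.27. CL6G52, the only strain with all 5 arrays above the floor, had 4.95, 4.69, 4.74, 4.92 and 5.14. No difference passed in any comparison (limma adjusted p = 0.675 to 0.985), and with the floor this near a difference was not measurable. The second probe set was above the floor on 5 arrays and the third on 0.

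Fabp3, the fatty acid binding protein of heart and muscle, was highest in CL6G36. Its log2 signals there were 8.20, 8.05, 8.24, 8.21 and 8.39, against 7.57, 7.68, 7.26, 7.33 and 7.45 in P19CL6. The lowest CL6G36 array lay above the highest array of every other strain. The rise was 0.76 ± 0.08 (limma adjusted p = 8.31e-08), 1.69-fold, and it passed under all 20 alternatives run. CL6G45 followed with 7.67, 7.89, 7.81, 7.90 and 7.74, of which replicate 1 lay just inside the P19CL6 range. That rise was 0.34 ± 0.08 (limma adjusted p = 0.00442), 1.27-fold, and it passed under 19 of 20 alternatives, the exception being the deposited scaling with a difference of 0.44 and adjusted p = 0.162.

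Fabp3 did not pass in the remaining comparisons. P19 had 7.48, 7.46, 7.55, 7.44 and 7.41, CL6G26 had 7.36, 7.49, 7.46, 7.41 and 7.46, and CL6G52 had 7.60, 7.92, 7.58, 7.68 and 7.47. P19CL6 minus P19 was -0.01 (95% interval -0.18 to 0.16) and CL6G26 minus P19CL6 was -0.02 (-0.20 to 0.15). CL6G52 minus P19CL6 was 0.19 (0.02 to 0.36), an interval above 0, with limma adjusted p = 0.207 over all probe sets. The Fabp3 probe set of MOE430B did not show the rise in CL6G36. It lay near its floor, above it on 24 of 30 arrays, with means of 4.40 ± 0.34 in CL6G36 and 4.41 ± 0.21 in P19CL6, and its highest mean was 5.00 ± 0.19 in CL6G45.

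Fabp5, the epidermal-type fatty acid binding protein, was far above the floor on every array and differed little between strains. CL6G26 was lowest, with log2 signals of 10.58, 10.55, 10.58, 10.69 and 10.74, against 11.20, 11.16, 11.00, 11.02 and 10.93 in P19CL6. The ranges did not overlap. The difference was -0.44 ± 0.08 (limma adjusted p = 0.00116), 1.35-fold lower, and on the dimmer probe set it was -0.51 ± 0.10 (limma adjusted p = 0.00194). It passed under 19 of 20 alternatives. Under the deposited scaling, which moved the median of all genes in this comparison to 0.13, it was -0.25 with adjusted p = 0.547.

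The other strains had Fabp5 values around those of P19CL6. P19 had 10.96, 10.85, 10.79, 11.04 and 10.89, CL6G45 had 10.82, 10.97, 10.84, 10.87 and 11.11, and CL6G36 had 10.87, 11.34, 11.18, 11.27 and 11.16. CL6G52 had 11.00 in replicate 1 and 11.24, 11.37, 11.28 and 11.38 in the others, the latter all above the P19CL6 range. Its difference from P19CL6 was 0.19 (95% interval 0.03 to 0.35, limma adjusted p = 0.179) with replicate 1 and 0.25 without it (limma adjusted p = 0.0395). The paired Fabp5 probe sets had r = 0.931 over 30 arrays, and both placed CL6G26 lowest and CL6G52 highest.

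Set side by side over the comparisons, the 7 genes did not move together. At an adjusted p under 0.05 with at least a 2-fold change, 1 of 7 was past the limits in P19CL6 against P19, where 0.652% of all 13181 genes were, and 2 of 7 in CL6G26 against P19CL6, where 0.258% of all genes were. These are Pltp, Plin2 and Lpl, whose differences guided the choice of genes, so nothing is read from the counts. In CL6G36, CL6G45 and CL6G52 none of the 7 reached both limits by limma, against 1.46%, 1.38% and 0.501% of all genes. At the adjusted p alone the counts were 1 (Fabp3), 2 (Fabp3 and Lpl) and 1 (Apoe) of 7, beside 13.5%, 13.3% and 3.18% of all genes. In CL6G26 against P19CL6 it was 3 of 7, with Fabp5, beside 1.24% of all genes, and in P19CL6 against P19 it was 1 of 7 beside 4.46%. The arrays of both strains did not overlap for 1, 3, 3, 2 and 0 of the 7 genes over the comparisons from P19CL6 against P19 to CL6G52 against P19CL6, beside 2.23%, 4.15%, 12.3%, 13.7% and 4.89% of all genes. The 4 subline comparisons share the P19CL6 arrays. The median difference over the 7 genes was 0.01 in P19CL6 against P19, -0.20 in CL6G26, 0.10 in CL6G36, -0.10 in CL6G45 and 0.07 in CL6G52. The median over all genes lay between -0.008 and 0.006 in the same comparisons.

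**Figure D3:**
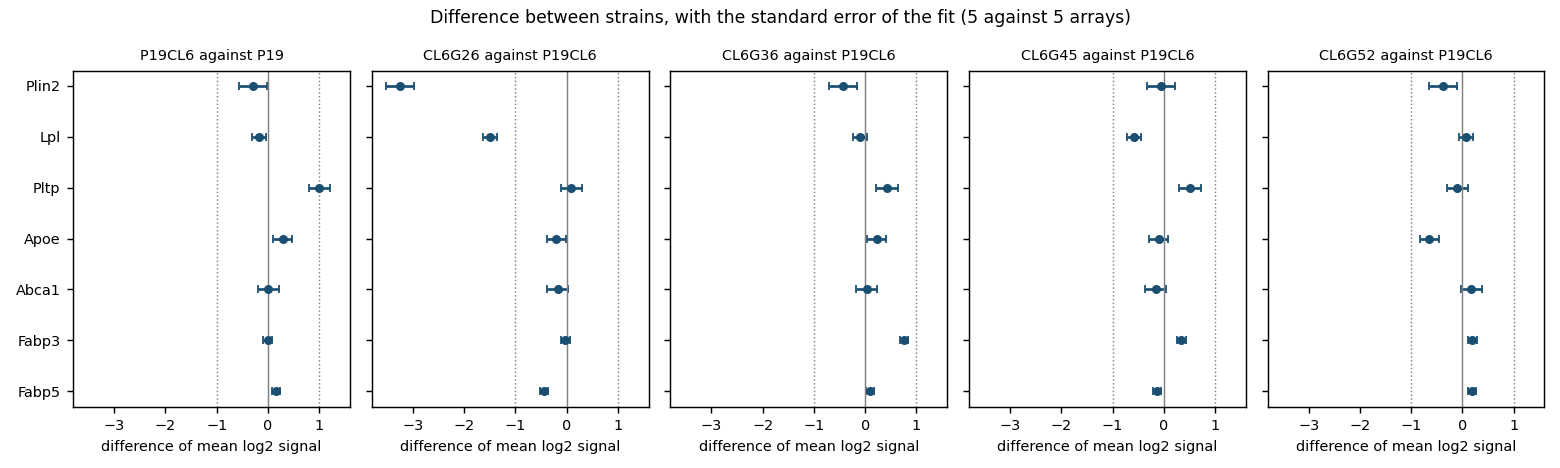
Each panel plots, for one comparison, the difference of mean log2 signal (x axis) of the 7 genes (y axis) with the standard error of the fit over 5 against 5 arrays, dotted lines marking a 2-fold change. Plin2 and Lpl lie left of the line in CL6G26 against P19CL6, at -3.24 and -1.49, and Fabp3 lies at 0.76 in CL6G36 against P19CL6.

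The joint variation of Plin2 and Lpl rested on a single strain. Their signals had r = 0.803 over 30 arrays, and r = -0.001 over the 25 arrays without CL6G26. Among 8899 genes read on MOE430A, those most like Plin2 by Pearson correlation over 30 arrays were Cep41 (r = 0.897), Acyp2 (0.893) and Acsl5 (0.875). Without CL6G26 these fell to 0.088, 0.076 and 0.405, so the likeness is mostly a shared low value in that strain. Those most like Lpl were Ptgr1 (0.900), Sptbn1 (0.858) and Cep41 (0.856), and over 25 arrays without CL6G26 they had 0.681, 0.672 and 0.330. Ptgr1 had its lowest mean in CL6G26 at 5.34 and its next lowest in CL6G45 at 6.32, as Lpl had. Since Ptgr1 was picked by its likeness to Lpl on these arrays, this is no separate result. The order of P19, P19CL6 and CL6G52 differed between these genes. Those most like Pltp were H2-Oa (0.956), Ccng2 (0.947) and Ndrg1 (0.947), and over 25 arrays without P19 they had 0.826, 0.858 and 0.726.

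Nearest to Apoe were Dgat1 (0.820), which makes triglyceride, Fam50a (0.810) and Pih1d1 (0.807). Over 25 arrays without CL6G52 they had 0.724, 0.691 and 0.826. Nearest to Fabp3 were Gpr19 (0.881), Pafah1b1 (0.880) and Ctsa (0.873), with 0.731, 0.852 and 0.620 without CL6G36. Nearest to Fabp5 were Lrp2 (0.854), a large endocytic lipoprotein receptor, Cd59a (0.828) and Hps3 (0.742). Without CL6G26 these had 0.788, 0.657 and 0.629. The Abca1 signal, at its floor, had no gene above r = 0.752. The arrays share strains and scaling, so these values describe likeness only.

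Other genes of lipid storage and transport were taken in 7 lists of 147 genes, of which 102 were tested. In CL6G26 against P19CL6, 0 were higher and 3 were lower at the adjusted p (2.94% of those tested, beside 1.24% of all genes). They were Acsl5, which activates fatty acids (-0.65 ± 0.09, limma adjusted p = 2.37e-05), the receptor Lrp2 (-0.63 ± 0.13, adjusted p = 0.00589) and Lrpap1, a chaperone of that receptor family (-0.36 ± 0.08, adjusted p = 0.0135). Lrpap1 was lower past the adjusted p in the 3 other sublines too, in comparisons that share the P19CL6 arrays. None of the 16 droplet coat genes or of the 14 lipase genes tested passed there by limma, and 1 in each list had an unadjusted p under 0.05, as 10.8% of all genes had. The median difference over the 102 genes was -0.011, beside -0.008 over all genes.

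In P19CL6 against P19, 9 genes were higher and 1 lower (9.80% of those tested, beside 4.46% of all genes). Those of fatty acid oxidation were Ppargc1b, a coactivator (1.24 ± 0.36, limma adjusted p = 0.0387), Cpt1a, which takes fatty acids into mitochondria (0.56 ± 0.17, 0.0408), Acaa2 (0.42 ± 0.10, 0.0169) and Acadm (0.28 ± 0.06, 0.0122). The lipoprotein receptor Vldlr was higher by 1.0 ± 0.27 (limma adjusted p = 0.0287), and with Ppargc1b it was 1 of 2 past the 2-fold limit. Srebf1, Scarb1, Slc27a3 and Lipg were higher by 0.62, 0.42, 0.89 and 0.57, and Mylip was lower, at -0.47. The P19 spread was wide in several, with an SD of 1.43 for Ppargc1b and 0.81 for Vldlr. Of the 5 P19 arrays, 3 were above the floor for Ppargc1b and 2 for Vldlr, and neither gene was past both limits with signals raised to the floor. The count was 0 by limma without P19 replicate 1, 2 or 3, where 0 of all 13181 genes passed too. It was 30 without replicates 4 and 5, where 2588 genes passed (19.6% of all). At an unadjusted p under 0.05 it was 32 of 102 with all arrays (31.4%, beside 19.9% of all genes).

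In CL6G36 against P19CL6, 10 were higher and 7 lower (16.7% of those tested, beside 13.5% of all genes). Sel1l, needed for the maturation of lipoprotein lipase, rose by 0.71 ± 0.13 (limma adjusted p = 0.00016), and Etfdh, of mitochondrial electron transfer, by 0.71 ± 0.15 (adjusted p = 0.00128). Of the droplet genes, Plin3 rose by 0.24, while Hsd17b11 and Ldah were lower, at -0.31 and -0.33. Of triglyceride synthesis, Gpat4 and Dgat1 rose by 0.32 and 0.31 and Agpat3 was lower, at -0.28. Of the receptor list, Lrp2 rose by 0.41 and Sort1, a sorting receptor, by 0.25, while Lrpap1 was lower, at -0.29. Lpcat3 and Npc1 of the efflux list rose by 0.31 and 0.36. Of the binding and activation list, Acbd3 rose by 0.34, and Dbi and Scp2 were lower, at -0.39 and -0.22. Acadm, of fatty acid oxidation, was lower at -0.19. None changed 2-fold by limma, and 30 of 102 had an unadjusted p under 0.05 (29.4%, beside 25.1% of all genes). Without CL6G36 replicate 3 the count past the adjusted p was 9 rather than 17, where 11.3% of all genes passed.

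In CL6G45 against P19CL6, 13 were higher and 6 lower (18.6% of those tested, beside 13.3% of all genes). Acsl4, another enzyme that activates fatty acids, rose by 1.01 ± 0.14 (limma adjusted p = 7.61e-06), and Plin3 by 0.41 ± 0.08 (adjusted p = 0.000496). Acsl5 rose by 0.37 and Scp2 was lower, at -0.51. Clu, a secreted apolipoprotein, was lower, with a mean of 2.98 under the floor against 5.11 in P19CL6. Abcg1, a cholesterol exporter, rose by 0.61 and Vldlr by 0.78, while Lmf1, also needed for lipase maturation, was lower at -0.57. Lpcat3 and Mylip rose by 0.32 and 0.40, Sel1l by 0.36, and Sort1 by 0.35. Lrpap1 was lower, at -0.55 (limma adjusted p = 1.53e-05), as were Agpat3 at -0.52 and Lpin2 at -0.65 of triglyceride synthesis. Etfdh, Hadh and Acadl of fatty acid oxidation rose by 0.70, 0.34 and 0.23. In CL6G52 against P19CL6, 4 were higher and 3 lower (6.86% of those tested, beside 3.18% of all genes). Abcg1 rose by 0.84 ± 0.20 (limma adjusted p = 0.0107), the fatty acid transporter gene Slc27a3 was lower at -0.91 ± 0.25 (0.0334), and Agpat3 was lower at -0.66 ± 0.09 (1.80e-05). Acsl4, Lrp2 and Sort1 rose by 0.47, 0.46 and 0.32, and Lrpap1 was lower, at -0.36 (limma adjusted p = 0.00774). The CL6G45 count was 12 rather than 19 without CL6G45 replicate 3 or 4, where 10.9% and 11.1% of all genes passed. The CL6G52 count was 11 rather than 7 without CL6G52 replicate 1 (4.89% of all genes), 4 without CL6G52 replicate 5 or P19CL6 replicate 3 or 5 (2.15% to 2.18%), and 3 without P19CL6 replicate 4 (2.02%). Under the deposited scaling the limma counts past the adjusted p fell to 0, 0, 1, 4 and 0 over the 5 comparisons, in the order P19CL6 against P19 and then the 4 sublines by number. The counts over all genes fell as well, from 588, 164, 1786, 1747 and 419 to 48, 34, 329, 385 and 171.

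**Figure D4:**
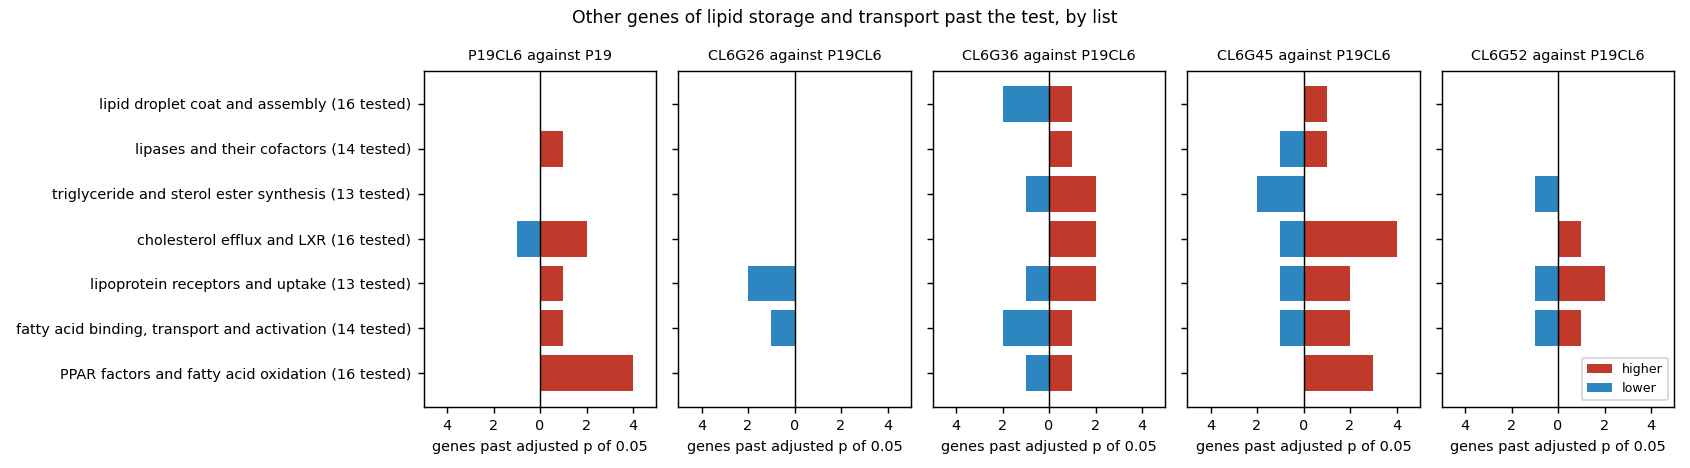
Bars give the number of genes (x axis) past an adjusted p of 0.05 in each of 7 lists (y axis, with the number tested), higher to the right and lower to the left, for each of 5 comparisons. CL6G26 against P19CL6 shows only lower genes, 3 in all, and P19CL6 against P19 shows 4 higher genes of fatty acid oxidation.

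Summed linear signals of the marker lists overlapped between CL6G26 and P19CL6 for each of the 5 cell types. The extraembryonic endoderm sum was 153.7 to 199.5 in CL6G36 and 198.1 to 212.5 in CL6G45, against 234.7 to 308.6 in P19CL6. Foxa2 had the highest strain mean of that list, and its strain means ran from 4.91 to 7.02. A linear sum can follow such a gene alone, and its part in the sum was not tested. The embryonal carcinoma sum was 12302 to 13093 in CL6G45, above the 11347 to 12274 of P19CL6, and 11490 to 12534 in CL6G36. In both sublines Fabp3 rose, and in CL6G45 Lpl was lower, and the part of these marker differences in them was not tested.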

How the data were processed

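Total RNA of 6 strains was measured on 60 arrays. The authors computed GCOS signals, per the submitters' processing notes, and deposited them as a linear intensity per probe set; the version and scaling target do not appear in the sources used here. Control probe sets were left out, arrays were quantile normalised within an array type, and log2 was taken after raising signals below 1 to 1. A probe set was tested if it exceeded the floor (40th percentile on MOE430A, 60th on MOE430B) on at least 5 of 30 arrays. A gene was read from its brightest tested probe set, MOE430A first. limma 3.58.1 in R 4.3.3 fitted a group-means model over 30 arrays (24 residual degrees of freedom, trended eBayes, two-sided), with Benjamini-Hochberg adjustment over all probe sets tested within an array type. Called means an adjusted p under 0.05 and at least a 2-fold change. The alternatives were the deposited scaling, the floor, the filter, the mean of probe sets, a replicate block, only the strains compared and samples left out. In each list, up to 4 genes past the adjusted p with the smallest values were named. The genes and lists were chosen with earlier results of these data known.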

Additional observations from a re-analysis of the deposited data

Results flagged for a closer look

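Of 72 sets of 5 arrays (12 probe sets of the 7 genes in 6 strains), 3 held an array whose gap to the nearest other array reached the 95% critical share of the range, 0.71, and chance alone flags about 1 in 20. Lpl on its brighter probe set was 8.01 (log2 signal) in CL6G36 replicate 5 against 7.78 to 7.83 in the other replicates. Lpl on its dimmer probe set was 5.84 in P19CL6 replicate 1 against 5.37 to 5.48. Abca1 on its brightest probe set was 5.20 in P19 replicate 2 against 4.51 to 4.71, near the floor.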

How the results depend on the processing

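Over 35 differences of the 7 genes, 683 of 693 alternative values stayed within the spread between replicates, 10 moved further and 0 changed the sign of a called difference. The filter, the replicate block and the fit of only the strains compared cannot change a difference of strain means. A change of sign was counted only for called differences, and the spread of Plin2 and Pltp includes the wide SD of CL6G26 and P19. These counts are therefore no measure of robustness. In CL6G26 against P19CL6 the Plin2 difference ran from -3.49 to -1.77 (with signals raised to the floor) and that of Lpl from -1.55 to -1.23, given as a description. In P19CL6 against P19 the count of the 7 genes past both limits fell from 1 to 0 under the deposited scaling, without P19CL6 replicates 1 and 2, and with only the arrays of these strains, and ran from 0 to 1 with single replicates left out (0 without P19 replicate 1, 2 or 3 or P19CL6 replicate 1 or 2). For the lipid lists in that comparison, 2 genes became 0 under the deposited scaling, 0 with signals raised to the floor, 0 without P19CL6 replicates 1 and 2, 0 with only these strains, 1 with no filter, 1 with the mean of probe sets and 5 without P19 replicates 4 and 5 (0 to 5 with single replicates left out). In CL6G45, 2 became 1 with signals raised to the floor and 1 with the mean of probe sets (1 to 3 with single replicates left out, the lowest without CL6G45 replicate 1), and in CL6G52, 0 became 1 without P19CL6 replicates 1 and 2 (0 to 1 with single replicates left out, 1 without CL6G52 replicate 4). Over all probe sets tested, same-numbered replicates did not deviate together (r from -0.099 to 0.084 on MOE430A), and the main fit had no replicate block. Pairing in a smaller set of genes was not tested. With the replicate number as a block, the lists' count in P19CL6 against P19 was 1 rather than 2. The deposited scaling moved the median of all genes to 0.125, 0.122 and 0.107 in CL6G26, CL6G45 and CL6G52. The cause of these changes was not tested. Signal near the floor limits Abca1, the MOE430B probe set of Fabp3, and the size of the Plin2 difference.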
